A study of Mus musculus with 12 samples.

Results

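The 86 genes described here encode the nuclear subunits of the mitochondrial respiratory chain and of ATP synthase, and they were taken from 12393 genes measured in transduced mouse bone marrow progenitor cells. They are all genes whose array annotation gave a single symbol beginning with Nduf, Sdha to Sdhd, Uqcr, Cox4i, Cox5, Cox6, Cox7, Cox8 or Atp5, together with Cyc1 and Cycs. This rule reads the symbols alone. Of the 86 genes, 33 belong to complex I, 5 are complex I assembly factors (the Ndufaf genes), 4 belong to complex II, 9 to complex III, 17 to complex IV and 17 to complex V, and 1 encodes cytochrome c. They were represented by 160 probe sets, and for the 46 genes with several probe sets the one with the highest mean log2 signal stands for the gene.

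The respiratory chain passes electrons from NADH, at complex I, and from succinate, at complex II, through coenzyme Q to complex III, then by cytochrome c to complex IV, which reduces oxygen. The proton gradient built on the way drives complex V, the ATP synthase. Most subunits are encoded in the nucleus and imported, several have isoforms that are restricted to heart, muscle, lung or testis, and primitive hematopoietic cells are known for relying on this pathway less than their dividing progeny do.

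By the labels the cells were marrow cells sorted as Sca-1+, Lin- and GFP+, from (C57Bl/6Ly-Pep3b x C3H/HeJ) F1 mice older than 12 weeks, which had received 150 mg/kg fluorouracil 4 days before harvest. The marrow was prestimulated for 48 hours with cytokines, placed for 2 days on irradiated GP+E86 virus producer cells and sorted after a further 24 hours. All groups carried an MSCV-IRES-GFP retrovirus, so that the transgene was driven by the viral promoter in every transduced cell and not from a hematopoietic promoter. The GFP control carried the empty vector MIG, ND13 carried NUP98-HOXD13, NA10 carried NUP98-HOXA10, and ND13(N51S) carried NUP98-HOXD13 with a homeodomain mutation that removes DNA binding. Each of the 4 groups had 3 arrays, which the study's design describes as independent experiments, and the RNA was amplified before hybridisation.

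Signals are MAS5 values on a linear scale, scaled by the authors to an equal trimmed mean of 500.16 to 500.19 on every array. The background of an array, set at the 95th percentile of its 27 bacterial controls, lay between 28.5 and 69.8. All 9 stem and progenitor markers were above it on all 12 arrays. Of the markers of other cell types, 8 of 9 for neutrophils, 7 of 9 for macrophages and 6 of 7 for mast cells and basophils were as well. The same held for 5 of 10 for fibroblasts, 3 of 4 for megakaryocytes, 2 of 4 for erythroid cells and 1 of 6 lineage antigens. These antigens were Ptprc, Cd4, Cd5, Cd8a, Cd79a and Cd3e, of which Cd79a and Cd3e were not among the antigens of the sort. For Ptprc the sort used B220, a form of its product, and the signal was not read by form. The count is therefore no measure of lineage-positive cells. A single array, ND13(N51S) replicate 2, stood apart in RNA quality, with a 3′ to 5′ signal ratio of 48.87 for Gapdh and 9.092 for actin, where no other array was above 2.71. The scanner's experiment record for GFP control replicate 1 names the MIG vector but also ND13 N51S, and gives the cells as Sca+ and GFP-, so this array may hold cells that were not transduced. It was used as labelled, every comparison with the control includes it, and values without it are given beside some of the results. A bulk signal cannot separate more cells of a type from more RNA per cell.

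The respiratory chain genes were detected almost throughout, with 83 of 86 genes above background on all 12 arrays. Their median signal was between 2457.3 and 3306 on the 12 arrays and the median of all probe sets between 128 and 159, values that also depend on the probes of each set. The exceptions were subunits of complex IV known from other tissues. Cox6b2, a testis subunit, was above background on 9 arrays, Cox7a1, a heart and muscle subunit, on 2 arrays, and Cox8b, also a heart and muscle subunit, on 1 array.

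No gene of the respiratory chain passed the test between any of the groups. In limma, with Benjamini-Hochberg adjustment over 22626 probe sets and a call at an adjusted p under 0.05 and at least 1.5-fold, 0 of 86 genes were called in each of the 6 comparisons, with or without the replicate number as a block. The background of calls was low as well. For ND13 against the GFP control 0.084% of all probe sets were called higher and 0.00442% lower, for NA10 0.0133% and 0%, and for ND13(N51S) 0% and 0%. Against ND13(N51S) the shares were 0.0133% and 0% for ND13 and 0.00442% and 0.00442% for NA10, and for ND13 against NA10 they were 0.0177% and 0%. With the replicate block the shares called higher and lower were 0.274% and 0.0221% for ND13, 0.0354% and 0.00442% for NA10 and 0.0133% and 0.0133% for ND13(N51S) against the GFP control, 0.0619% and 0.0177% for ND13 and 0.0398% and 0.00442% for NA10 against ND13(N51S), and 0.0309% and 0.00884% for ND13 against NA10. In the F test across the 4 groups 0 of the 86 genes and 0.0442% of all probe sets were called, and with the block 0 genes and 0.168%. At an unadjusted p under 0.05 the F test held 4 of these genes, Atp5k, Cox7a2l, Cox8c and Ndufs1, and 6.91% of all probe sets. At an unadjusted p under 0.05 with the same fold, the counts of these genes were 0 for ND13 against the GFP control, 1 for NA10 and 2 for ND13(N51S) against it, 2 for ND13 and 3 for NA10 against ND13(N51S), and 0 for ND13 against NA10. Without GFP control replicate 1 the counts against the control became 0 in NA10 and 1 in ND13(N51S) and stayed at 0 in ND13, and 0 genes were called. Against the GFP control, 3.43% of all probe sets were higher and 1.5% lower by this rule in ND13, 2.51% and 1.52% in NA10, and 4.37% and 2.48% in ND13(N51S). Against ND13(N51S) the shares were 3.2% higher and 3.78% lower in ND13 and 2.94% higher and 4.85% lower in NA10, and for ND13 against NA10 they were 1.98% and 1.34%.

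The intervals bound how large a missed difference could be. For ND13 against the GFP control the 95% interval lay within a 2-fold change in either direction for 75 of 86 genes, and within a 1.5-fold change for 30 genes. The corresponding counts were 72 and 38 for NA10, and 70 and 33 for ND13(N51S). For most genes a 1.5-fold change lay inside the interval. The methods' t-test, run on the same MAS5 values, called 0 genes after Benjamini-Hochberg adjustment as well. The paper names no such adjustment and used GC-RMA values, so this is not the study's own rule.

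**Figure D1:**
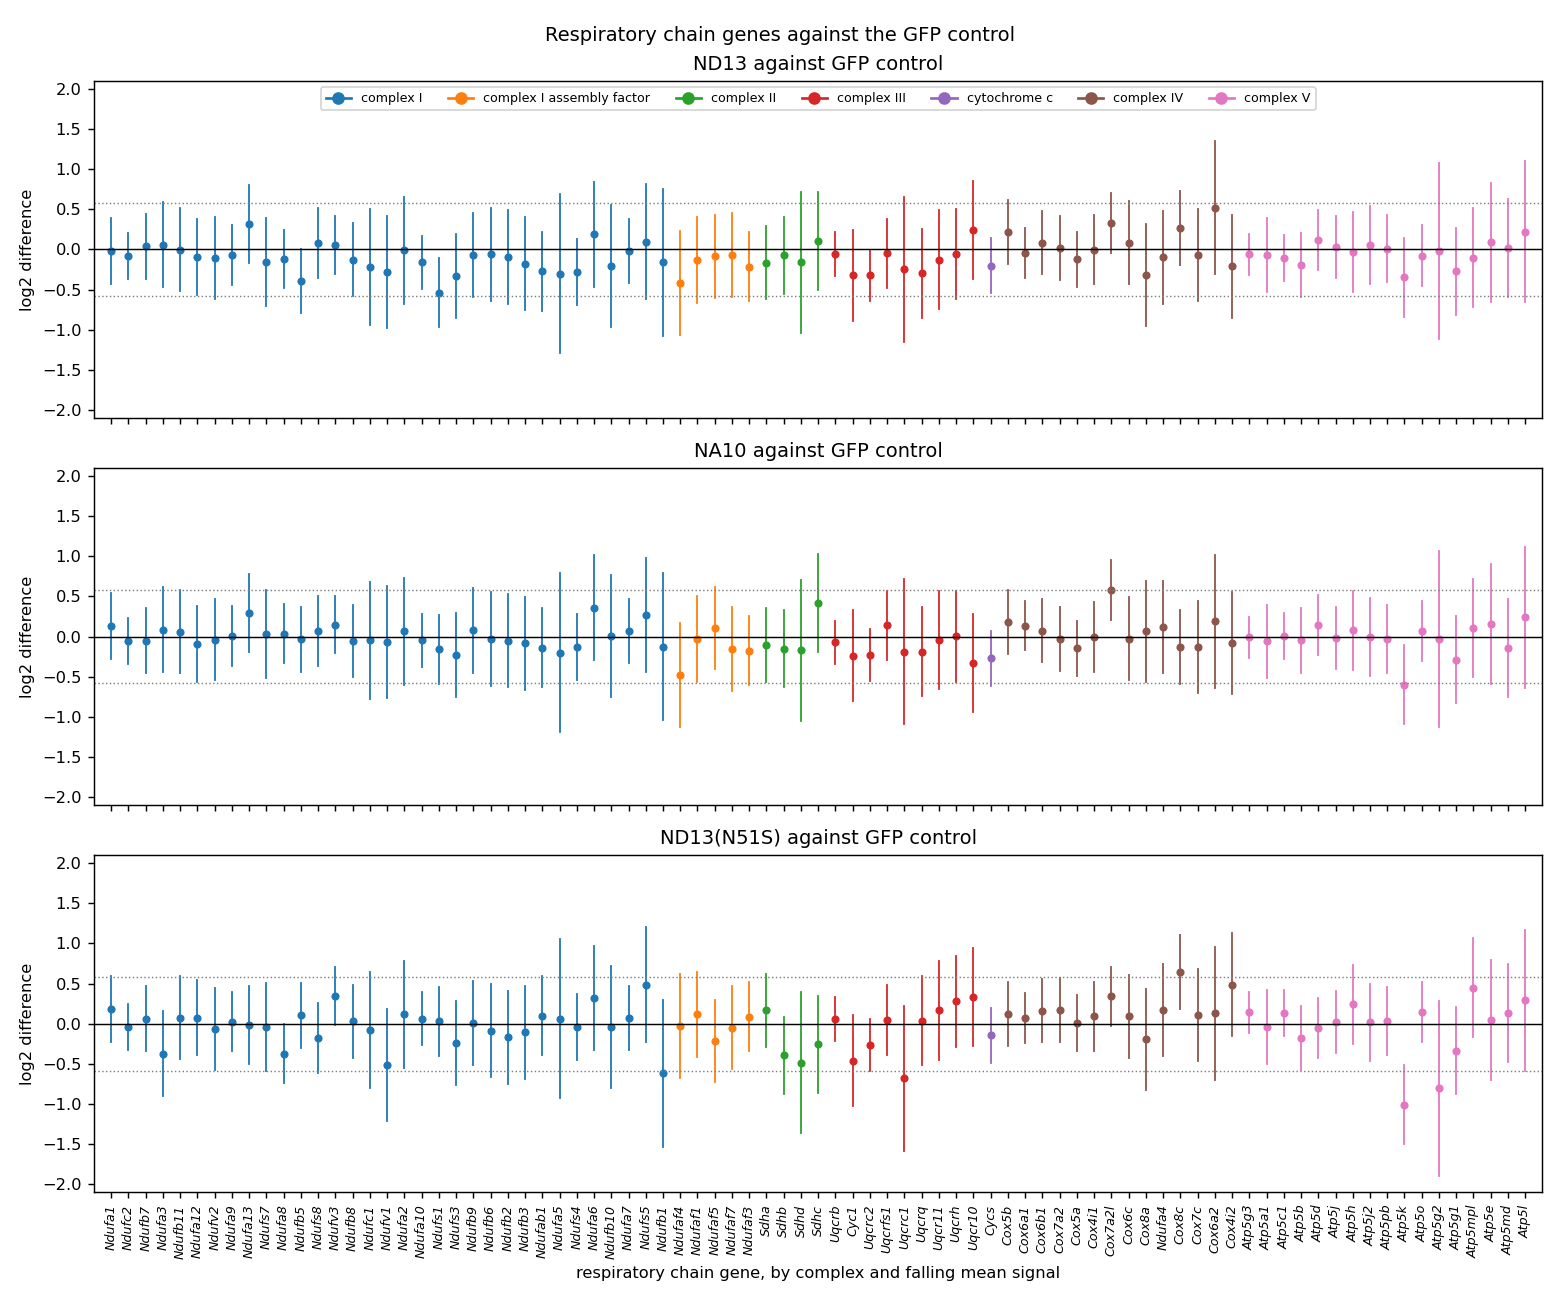
Log2 difference from the GFP control (y axis) of the 83 genes above background on all 12 arrays, in ND13, NA10 and ND13(N51S), ordered by complex and falling mean signal; points are limma estimates, bars 95% intervals and dotted lines the 1.5-fold change. Most intervals cross 0, and Atp5k in ND13(N51S), at -1.01, is the lowest of the 3 panels.

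The medians of the whole family were small on the log2 scale. Against the GFP control the median member difference was -0.0723 in ND13, with 25 genes above 0 and 61 below, -0.0306 in NA10, with 35 above and 51 below, and 0.0339 in ND13(N51S), with 51 above and 35 below. The medians over all probe sets were 0.000353, -0.0119 and 0.0718. Median log2 deviations from the mean of all arrays were also averaged within each group. For the family these were 0.0337 in the GFP control, -0.0539 in ND13, 0.0217 in NA10 and 0.0592 in ND13(N51S). For the 2336 probe sets in the middle signal range of these genes they were 0.0388, -0.00999, 0.0147 and 0.0279. Both sets were lower in ND13 and NA10 than in the control. Whether the family differed from these probe sets was not tested. Leaving out single arrays changed the sign of the family's median difference from the control in NA10 and ND13(N51S). In NA10 it became 0.0791 without NA10 replicate 3 and 0.00883 without GFP control replicate 1. In ND13(N51S) it became -0.0632 without ND13(N51S) replicate 2. In ND13 it stayed below 0, between -0.117 and -0.0293. The split also moved with scaling, since centring each array on its median left 19.8% of the genes above 0 in ND13 and 30.2% in ND13(N51S), against 29.1% and 59.3% as deposited.

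In ND13, 9 of 86 genes had all 3 arrays below all 3 GFP control arrays, where 5.37% of all probe sets did so, and 2 had all arrays above, against 6.84%. The 9 genes were the complex III subunits Cyc1, Uqcrc1 and Uqcrc2, the complex I subunits Ndufa10, Ndufb5, Ndufs4 and Ndufv1, and the assembly factors Ndufaf3 and Ndufaf4. The 2 above were Cox6a2 and Cox6b1. In NA10, 3 genes lay wholly below the control (Atp5k, Cyc1 and Uqcrc2; background 5.18%) and 1 wholly above (Cox7a2l; background 5.6%). In ND13(N51S) 1 gene lay wholly below (Atp5k; background 3.45%) and 3 wholly above (Cox4i2, Cox7a2l and Cox8c; background 8.5%). Against ND13(N51S), ND13 had 6 genes wholly below and 1 above (background 8.04% and 4.28%) and NA10 had 1 and 2 (background 9.4% and 4.3%), and against NA10, ND13 had 6 below and 1 above (background 4% and 5.4%). Without GFP control replicate 1, 3 arrays against 2 leave more genes apart by construction. ND13 then had 13 genes wholly below the control (background 9.92%) and 3 above (11.2%), NA10 had 7 and 3 (9.34% and 9.75%), and ND13(N51S) had 4 and 3 (6.34% and 13.7%). With 3 arrays against 3, an exact two-sided permutation test of 1 gene cannot go below p = 0.1.

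In complex I the signal of Ndufs1, the largest subunit and a carrier of iron-sulfur clusters, differed most in ND13. Its signals were 2870.4, 2141 and 3163 in the GFP control, 1737, 1623 and 2247 in ND13, 2528, 2043 and 2691 in NA10 and 3048, 2503 and 2697 in ND13(N51S). The ND13 arrays overlapped the control only at replicate 3, which was the highest of the ND13 arrays, while replicate 2 of the control was its lowest. The log2 difference of ND13 was -0.54 ± 0.20 (SE, adjusted p = 0.713) from the GFP control and -0.57 ± 0.20 (SE, adjusted p = 0.533) from ND13(N51S), and the intervals were -0.97 to -0.11 and -0.99 to -0.14. With the replicate block the adjusted p values were 0.188 and 0.167. In NA10 the log2 difference from the control was -0.16, and that between ND13 and NA10 was -0.38 ± 0.20 (SE, adjusted p = 1). Without GFP control replicate 1 the difference of ND13 from the control was -0.49 ± 0.23 (SE).

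Ndufb5, an accessory subunit of the membrane arm, had signals of 2921, 3367 and 3031 in the GFP control, 2454, 2281 and 2357 in ND13, 3212, 3009.8 and 2874 in NA10 and 3099, 4534 and 2629.6 in ND13(N51S). All 3 ND13 arrays were below all 9 other arrays. The log2 difference of ND13 from the GFP control was -0.39 ± 0.19 (SE, adjusted p = 0.879), that from ND13(N51S) -0.50 ± 0.19 (SE, adjusted p = 0.563) and that from NA10 -0.36 ± 0.19 (SE, adjusted p = 1). The difference from ND13(N51S) was -0.27 without its replicate 2, whose signal of 4534 was the highest of all arrays. A second Ndufb5 probe set gave -0.12 for ND13 against the control, -0.22 against ND13(N51S) and 0.07 against NA10. It therefore did not place ND13 below NA10.

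Ndufa1, a small subunit needed for assembly of the membrane arm, had signals of 7952, 7619 and 5682 in the GFP control, 7073, 7134 and 6603 in ND13, 7370.1, 7959.5 and 7774 in NA10 and 7257, 10977 and 6365 in ND13(N51S), and its log2 differences from the GFP control were -0.02, 0.14 and 0.19 in ND13, NA10 and ND13(N51S). The groups overlapped. The assembly factor Ndufaf4 had signals of 3317, 2156 and 2494 in the GFP control, 1864, 2091 and 1907 in ND13, 2280.1, 2152 and 1355 in NA10 and 2394, 4160 and 1666 in ND13(N51S), and its log2 difference from the control was -0.42 ± 0.30 (SE, adjusted p = 1) in ND13 and -0.47 ± 0.30 (SE, adjusted p = 1) in NA10. These became -0.25 ± 0.34 (SE) and -0.30 ± 0.34 (SE) without GFP control replicate 1.

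The 4 subunits of complex II, which also works in the citric acid cycle, did not move together. Sdhc, one of the 2 membrane anchors, had signals of 806, 1379 and 666 in the GFP control, 974, 1248 and 755 in ND13, 1064, 1276 and 1291 in NA10 and 963, 625 and 719 in ND13(N51S). All NA10 arrays were above all ND13(N51S) arrays, with a log2 difference of 0.67 ± 0.28 (SE, adjusted p = 0.546), whereas the GFP control spanned nearly the whole range. A second Sdhc probe set gave 0.77 for NA10 against the control, and the first gave 0.41 ± 0.28 (SE, adjusted p = 1). Sdhb, the iron-sulfur subunit, had signals of 4242, 4169 and 3835 in the GFP control, 3656, 3962 and 4035 in ND13, 4068, 3809 and 3182 in NA10 and 4266, 2036 and 3437 in ND13(N51S), and its lowest value was on the array with the high 3′ to 5′ ratios.

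Sdha, the flavoprotein that oxidises succinate, had signals of 4944, 5225 and 7046 in the GFP control, 3973, 5289 and 6139.9 in ND13, 4552, 5238 and 6153 in NA10 and 5029, 7694 and 6642 in ND13(N51S), and the ranges of the 4 groups overlapped. Sdhd, the other membrane anchor, had signals of 2931, 4497 and 5160.2 in the GFP control, 2485, 3277 and 5966 in ND13, 2844, 3016 and 5535 in NA10 and 1810, 2559.6 and 5305 in ND13(N51S). It varied within every group in the same order, lowest in replicate 1 and highest in replicate 3, and its log2 difference from the control was -0.16 in ND13, -0.17 in NA10 and -0.49 in ND13(N51S).

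In complex III the core protein Uqcrc2 had signals of 5309.6, 5530.4 and 4779 in the GFP control, 3849, 4366 and 4271 in ND13, 4569, 4306 and 4434 in NA10 and 4933, 3593 and 4537 in ND13(N51S). Every ND13 and NA10 array was below every GFP control array. The log2 difference from the control was -0.32 ± 0.15 (SE, adjusted p = 0.866) in ND13, -0.23 ± 0.15 (SE, adjusted p = 1) in NA10 and -0.27 ± 0.15 (SE, adjusted p = 0.698) in ND13(N51S), and a second probe set gave -0.15, -0.11 and 0.17. Uqcrb, which supports the assembly of the complex, had log2 differences of -0.05, -0.07 and 0.06.

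Uqcr10, a small subunit of complex III, had signals of 596, 684 and 565 in the GFP control, 745, 682 and 756 in ND13, 589, 636 and 310.3 in NA10 and 1054, 587 and 745 in ND13(N51S). The log2 difference of NA10 from ND13(N51S) was -0.66 ± 0.28 (SE, adjusted p = 0.549). The 3 probe sets of Uqcr10 gave 0.25, -0.70 and 0.04 for ND13 against the GFP control, so the gene had no single direction.

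Cytochrome c, encoded by Cycs, is the mobile carrier between complexes III and IV and a trigger of apoptosis when released. Its signals were 9276, 7090 and 6718 in the GFP control, 7254, 6523 and 6117 in ND13, 6960.3, 6658 and 5440.4 in NA10 and 6994, 7498 and 6255 in ND13(N51S). The log2 difference from the control was -0.20 ± 0.16 (SE, adjusted p = 1) in ND13, -0.27 ± 0.16 (SE, adjusted p = 1) in NA10 and -0.14 ± 0.16 (SE, adjusted p = 0.841) in ND13(N51S). All 3 Cycs probe sets were below 0 in all 3 comparisons, between -0.39 and -0.14, and the arrays of the groups overlapped. GFP control replicate 1 had the highest of these signals. When it was left out, the differences were -0.06 ± 0.16 (SE) in ND13, -0.13 ± 0.16 in NA10 and -0.001 ± 0.16 in ND13(N51S).

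In complex IV the signal of Cox7a2l, a relative of Cox7a2 that takes part in joining complexes III and IV into supercomplexes, had a positive difference from the GFP control in all 3 fusion groups. Its signals were 4234, 4462 and 4104 in the GFP control, 5569, 6580.2 and 4194 in ND13, 6140.2, 6359 and 6675 in NA10 and 5434, 6281 and 4611 in ND13(N51S). All NA10 and ND13(N51S) arrays and 2 of 3 ND13 arrays were above the highest control array. The log2 difference from the control was 0.58 ± 0.17 (SE, adjusted p = 0.713) in NA10, 0.33 ± 0.17 (SE, adjusted p = 0.917) in ND13 and 0.34 ± 0.17 (SE, adjusted p = 0.686) in ND13(N51S). The 3 comparisons share the control arrays. With the replicate block the adjusted p for NA10 was 0.266, and all 3 probe sets of the gene were above 0 in the 3 comparisons, between 0.13 and 0.58. Without GFP control replicate 1 the difference of NA10 was 0.58 ± 0.20 (SE). The summed signal of the megakaryocyte list was also higher in these groups, at 2685 to 4266 in the GFP control, 5009 to 5914 in ND13, 6000 to 6415 in NA10 and 5003 to 7132 in ND13(N51S). Of its 4 genes 1 was higher at an unadjusted p under 0.05 and 1.5-fold in each comparison with the control. Other lists rose as well. Of the 9 macrophage genes 4 were higher and 0 lower by this rule in each of these comparisons. Of the 7 mast cell and basophil genes 1, 1 and 5 were higher in ND13, NA10 and ND13(N51S), and 0 lower. The part of these cells in the result was not tested.

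Cox8c, a subunit isoform known from testis, had signals of 326, 387 and 424 in the GFP control, 381, 458 and 531 in ND13, 287, 361 and 394 in NA10 and 618, 549 and 604 in ND13(N51S). All ND13(N51S) arrays were above all other arrays. The log2 difference of ND13(N51S) from the GFP control was 0.65 ± 0.22 (SE, adjusted p = 0.543) and that of NA10 from ND13(N51S) was -0.78 ± 0.22 (SE, adjusted p = 0.344). The lung and placenta isoform Cox4i2 had signals of 149, 122 and 128 in the GFP control, 92.4, 136 and 120.1 in ND13, 101, 122 and 159 in NA10 and 248, 169.7 and 152 in ND13(N51S), and the log2 difference of ND13 from ND13(N51S) was -0.70 ± 0.30 (SE, adjusted p = 0.602).

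**Figure D2:**
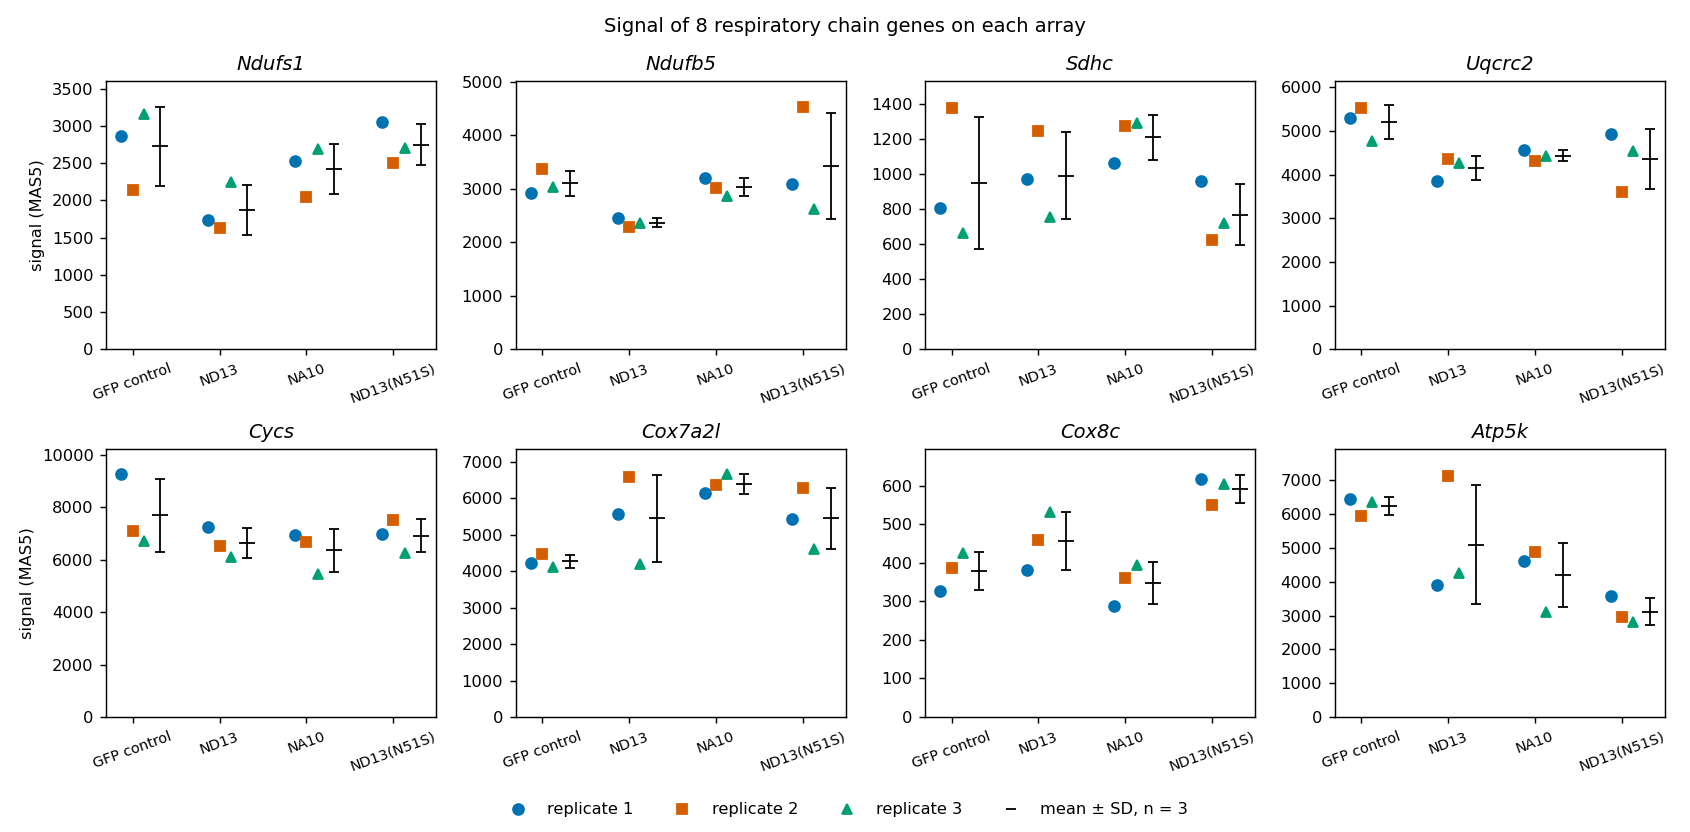
MAS5 signal on a linear axis from 0 for 8 genes on each of the 12 arrays, with marker shape for the replicate number and mean ± SD of 3 arrays beside each group. Ndufb5 in ND13 and Cox8c in ND13(N51S) lie wholly apart from the other groups, while Sdhc in the GFP control and Atp5k in ND13 span much of the range of all arrays.

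Several subunits of complex IV have a widely expressed and a tissue-restricted isoform, and the 2 kinds stood differently against background. The widely expressed Cox4i1 had signals from 5002 to 8430.3, Cox6a1 from 7885 to 11133, Cox6b1 from 6881 to 12254, Cox7a2 from 6668 to 11636 and Cox8a from 1540.8 to 4225, all far above background. The restricted isoforms ranged from above background on all arrays, as for Cox8c and Cox4i2, to below it on most. The heart and muscle isoform Cox6a2 had signals of 119.9, 138 and 132 in the GFP control, 175, 194 and 189 in ND13, 185, 149.9 and 116 in NA10 and 136, 274 and 76.3 in ND13(N51S), and all 3 ND13 arrays were above the control arrays. Its log2 difference in ND13 was 0.52 ± 0.38 (SE, adjusted p = 1). For Cox6b2 the signals were 109, 65.4 and 65 in the GFP control, 23.3, 67.5 and 25.9 in ND13, 89.8, 72.8 and 84.8 in NA10 and 69.6, 145 and 19.3 in ND13(N51S), of which 2 in ND13 and 1 in ND13(N51S) were below the background of their arrays. No fold is given for Cox6b2.

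Cox7a1 was at 3.6 to 59.5 and Cox8b at 3.16 to 43.6, at or below background on most arrays, so no fold is given for either. Cox5a, a subunit on the matrix side, had log2 differences from the control of -0.12, -0.15 and 0.01 in ND13, NA10 and ND13(N51S). Cox5b, a zinc-binding subunit, had 0.22, 0.18 and 0.13. Ndufa4, named for complex I but a part of complex IV, had -0.10, 0.12 and 0.17. For Cox8a the difference in ND13 was -0.32 ± 0.29 (SE, adjusted p = 1) and rested on ND13 replicate 1, which had a signal of 1540.8 where the other 2 ND13 arrays had 4211 and 3532.

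**Figure D3:**
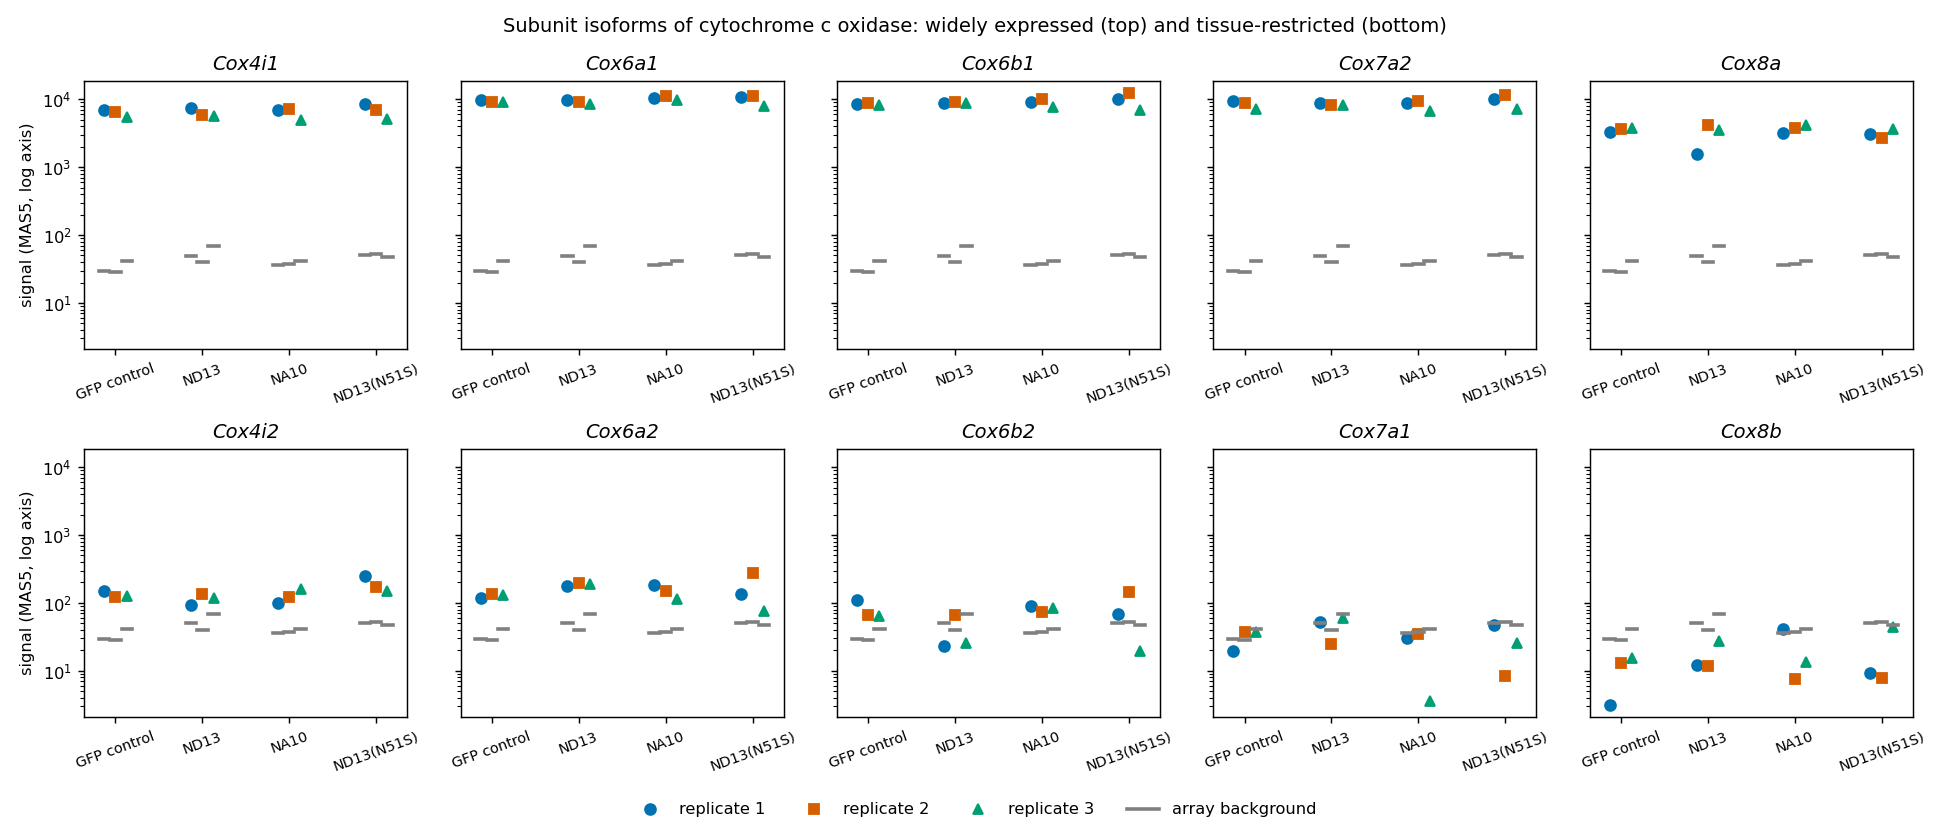
MAS5 signal on a log axis of 5 widely expressed subunit isoforms of cytochrome c oxidase (top) and their tissue-restricted counterparts (bottom) on each of the 12 arrays, with grey bars for the background of each array. The top isoforms all lie at 1540.8 or above, and Cox7a1 and Cox8b lie at or below background on most arrays.

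In complex V the largest difference was in Atp5k, the e subunit of the membrane part, which takes part in dimerising the synthase. Its signals were 6433, 5946 and 6360.1 in the GFP control, 3912, 7121 and 4259 in ND13, 4602, 4879.8 and 3120.3 in NA10 and 3576, 2965 and 2819.7 in ND13(N51S). All ND13(N51S) and NA10 arrays were below all GFP control arrays, and ND13 replicate 2 was the highest of all 12 arrays. The log2 difference from the control was -1.01 ± 0.23 (SE, adjusted p = 0.302) in ND13(N51S), -0.60 ± 0.23 (SE, adjusted p = 1) in NA10 and -0.35 ± 0.23 (SE, adjusted p = 0.996) in ND13. The adjusted p for ND13(N51S) was 0.114 with the replicate block, and without GFP control replicate 1 the difference was -0.99 ± 0.27 (SE). The other 2 Atp5k probe sets did not follow it, since they gave 0.36 and -0.07 for ND13(N51S) against the control, a range of 1.37 over the 3 probe sets that was the widest of all genes in that comparison.

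The 3 genes of the c ring encode 1 mature protein with different import sequences. Atp5g3 had signals of 12456, 11303 and 12387 in the GFP control, 10825, 10983 and 12916 in ND13, 11766, 12254 and 11852 in NA10 and 13525, 14507 and 11891 in ND13(N51S), and the groups overlapped. Atp5g2 had signals of 3317, 3375 and 3448 in the GFP control, 3434, 3362 and 3216 in ND13, 3849, 3735 and 2528 in NA10 and 4390.2, 593 and 2763 in ND13(N51S). Its log2 difference in ND13(N51S) was -0.81 ± 0.51 (SE, adjusted p = 0.721) and came from replicate 2 alone, since the other 2 ND13(N51S) arrays lay on either side of the control. For Atp5g1 the differences were -0.27, -0.29 and -0.34. Atp5mpl, a small membrane subunit, had a difference of -0.55 ± 0.28 (SE, adjusted p = 0.674) for ND13 against ND13(N51S). Its signals were 1285, 2176 and 1618 in ND13 and 2084, 3372 and 2020 in ND13(N51S), where replicate 2 deviated by 0.815 on the log2 scale from the mean of all arrays. Atpif1, the inhibitor of the synthase, had differences of -0.12, -0.02 and 0.03 against the control.

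The ND13(N51S) values rest in part on replicate 2. On that array 28 of 86 genes deviated at least 1.5-fold from their mean over all arrays, 16 upward and 12 downward, against 0 to 7 genes on the other arrays. Among genes above background on all arrays the extremes on the log2 scale were -2.3 for Atp5g2, -1.82 for Uqcrc1 and -1.51 for Ndufb1, and, upward, 1.01 for Ndufa5. Leaving out ND13(N51S) replicate 1 or 3 raised the count at an unadjusted p for this group against the control from 2 to 8 or 7. The shares of all probe sets in those fits are not given, so the rise has no background beside it. In the same group the summed signal of the mast cell and basophil list was 4951 to 8356, against 2431 to 4021 in the GFP control, 3154 to 3879 in ND13 and 3090 to 5174 in NA10. The macrophage list was 5718 to 11630 in ND13(N51S), 6388 to 8719 in ND13, 4846 to 5521 in NA10 and 3209 to 6261 in the control, and the fibroblast list 1801 to 2458, 1018 to 1479, 1168 to 1663 and 1364 to 1882 in that order. The erythroid list was 461.1 to 491.2 in ND13(N51S), 298.1 to 375.4 in ND13, 174.8 to 401 in NA10 and 336.9 to 374.2 in the control. The neutrophil list overlapped between all groups, at 16680 to 25960, 8336 to 23830, 11820 to 23650 and 17220 to 22770. The part of these cells in the differences of the respiratory chain genes was not tested.

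More of these genes passed the test between replicate numbers than between groups, and the same held for all probe sets. In the blocked fit 0 genes and 0.168% of all probe sets passed the F test across the 4 groups. Between replicate numbers 19 of 86 genes (22.1%) differed at an adjusted p under 0.05. So did 5.22% of all probe sets and 17.4% of the 2336 probe sets in the middle signal range of these genes. The test of the replicate number was chosen after the values had been seen. By complex these were 11 of 33 genes of complex I, 1 of 4 of complex II, 1 of 9 of complex III, 1 of 17 of complex IV and 5 of 17 of complex V. Without ND13(N51S) replicate 2 the count was 26 (30.2%), against 10.2% of all probe sets and 33% of those in the same signal range. Without GFP control replicate 1 it was 12 (14%), against 3.51% and 11.7%.

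The direction was mostly a low replicate 3. Of the 86 genes, 25 (29.1%) had their lowest value in replicate 3 in all 4 groups, against 6.21% of all probe sets and 15.6% of those in the same signal range. Only 3 genes (3.49%) had their highest value there in all 4 groups, against 6.76% and 13.9%. The complex I medians of replicate 3 were -0.182 in the GFP control, -0.167 in ND13, -0.227 in NA10 and -0.297 in ND13(N51S), as log2 deviations from the mean of all arrays, and the medians of replicate 2 were 0.142, 0.00722, 0.167 and 0.37.

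**Figure D4:**
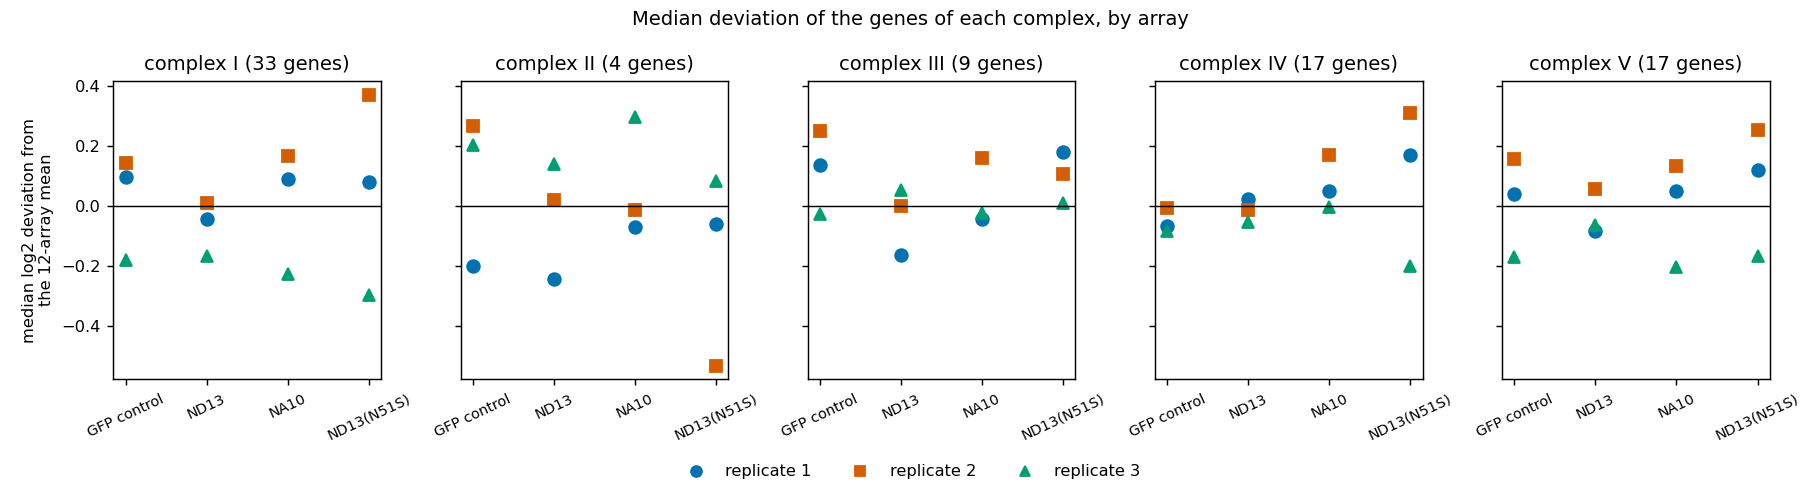
Median log2 deviation from the 12-array mean (y axis) of the genes of each complex on each array, by group, with marker shape for the replicate number. In complex I replicate 3 is below 0 in all 4 groups, and in complex II the lowest point is ND13(N51S) replicate 2, at -0.533.

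Ndufa5, a subunit of the matrix arm of complex I, had signals of 2006, 1736 and 799 in the GFP control, 1414, 1367 and 769 in ND13, 1581, 1541 and 752 in NA10 and 1524, 2628 and 789.5 in ND13(N51S). Its mean over the 4 groups differed by -1.18 on the log2 scale between replicate 3 and replicate 2. The adjusted p of 0.0038 is that of the F test across all 3 replicate numbers, and no single pair of numbers was tested. Atp5l, subunit g of the synthase, had signals of 754, 853 and 372 in the GFP control, 876, 786 and 548 in ND13, 928, 888 and 481 in NA10 and 807, 1239 and 436 in ND13(N51S). Its difference between the same replicates was -1.03 (adjusted p = 0.00923 in the same F test). Ndufb10, of the membrane arm, had a difference of -0.898 and Atp5e, the epsilon subunit, of -0.88. In each of these 4 genes replicate 3 was the lowest array of every group.

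Other genes ran the opposite way. Sdhd, given above, was 0.748 higher on the log2 scale in replicate 3 than in replicate 2 and 1.15 higher than in replicate 1. In the F test across the 3 replicate numbers its adjusted p was 0.00289. Atp5a1, the alpha subunit of the catalytic head, was highest in replicate 3 of all 4 groups, with signals of 9811, 9822 and 12506 in the GFP control, 8818, 8871 and 13308 in ND13, 8841, 9077 and 13247 in NA10 and 10727, 8325 and 12418 in ND13(N51S). Its difference from replicate 2 was 0.514 (adjusted p = 0.0145 in the same F test). Ndufs3, a subunit of the matrix arm, was lowest in replicate 1 in each group.

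**Figure D5:**
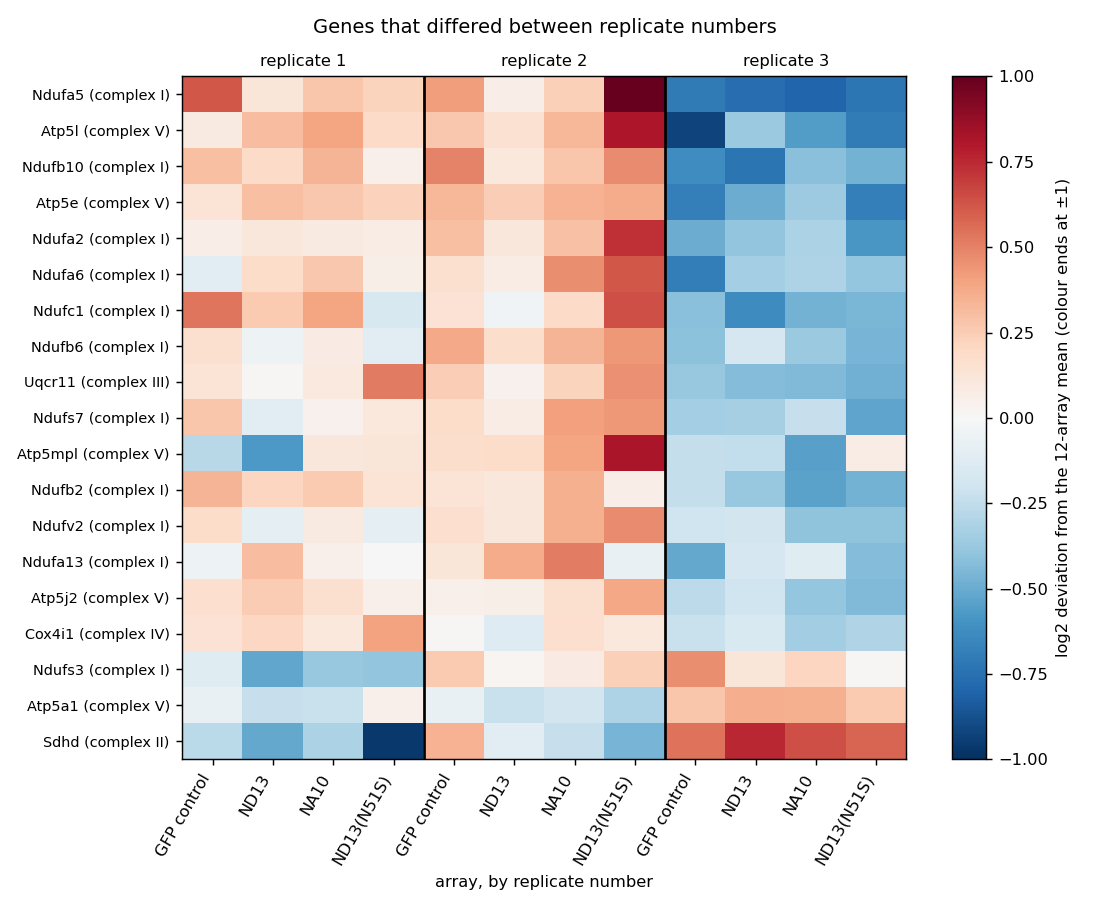
Log2 deviation from the 12-array mean (colour) of the 19 genes that differed between replicate numbers (rows) on the 12 arrays (columns), ordered by replicate number. The 4 arrays of replicate 3 are low for 15 of the genes in every group and high for Sdhd and Atp5a1.

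Across the 12 arrays the genes did not form a single block. The correlation of a gene with the mean of the other 85 had a median of r = 0.538, with 45 genes over 0.5 and 24 below 0. It was highest for Uqcr11 (0.915) and Ndufs7 (0.897), and lowest for Atp5a1 (-0.737), Atp5b (-0.688) and Sdhd (-0.683). Of 7382 genes outside the family that were above background on all arrays, Lsm3 (0.931), Hacd3 (0.925) and Nme1 (0.923) followed the mean of the 86 genes most closely. All these are descriptions over 12 arrays that share group and replicate number.

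Promoter sequence was examined for motifs of factors known to bind at genes of this family. RefSeq start-site windows on GRCm38.p6, of 250 bases before to 50 bases after a start, were held for 71 of the 86 genes. The core of the NRF1 motif, CGCANGCG, was found on either strand in 26 of these (36.6%), against 12.5% of coding genes. NRF1 is a transcription factor known for activating nuclear respiratory genes. The ETS motif CCGGAAG, bound by GABP, was in 18 (25.4%, against 12.9%), and the YY1 motif AAGATGGCG in 6 (8.45%, against 2.14%), each searched on both strands. No motif contains another, and 41 genes held at least 1 of them. Of the 19 genes that differed between replicate numbers, 15 had a window, and 6 held the NRF1 core, 6 the ETS motif and 3 the YY1 motif. There were 61 matches in all, of which 9 in 8 genes are shown. Ndufa5, Sdhd, Atp5e, Ndufs3 and Ndufs7 stand for the genes that differed between replicate numbers. Atp5k and Atp5g2 stand for those with the largest falls from the GFP control in ND13(N51S), and Sdha for complex II. The motif is in capitals, 5′ to 3′ on the strand of the gene.
Ndufa5 NRF1, chr6:24527698-24527725, minus strand: gtgtgagctgCGCAGGCGcaaatctacc
Sdha NRF1, chr13:74350277-74350304, minus strand: gggcgtgttgCGCAGGCGcagaatcttc
Sdhd NRF1, chr9:50603910-50603937, minus strand: cgctggggtgCGCACGCGcggtggcagc
Atp5g2 NRF1, chr15:102671071-102671098, minus strand: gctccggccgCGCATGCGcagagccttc
Atp5k NRF1, chr5:108434431-108434458, minus strand: ttcactgcggCGCATGCGcctttctggc
Sdhd ETS, chr9:50603879-50603905, minus strand: cgtctcctgcCTTCCGGttcacgcttc
Atp5e ETS, chr2:174464187-174464213, minus strand: acggccacagCTTCCGGtagccgctcg
Ndufs3 ETS, chr2:90904732-90904758, minus strand: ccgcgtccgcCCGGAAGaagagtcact
Ndufs7 YY1, chr10:80249463-80249491, plus strand: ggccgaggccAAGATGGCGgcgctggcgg

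The NRF1 core was also found in Ndufa6, Ndufa7, Ndufa8, Ndufa12, Ndufb10, Ndufs5, Ndufaf4, Ndufaf5, Uqcr10, Uqcr11, Uqcrc1, Cox6a1, Atp5c1, Atp5d, Atp5g3, Atp5h, Atp5j, Atp5l, Atp5md, Atp5o and Cycs. The ETS motif was also in Ndufb6, Ndufb7, Ndufs8, Ndufaf1, Sdhb, Uqcr11, Uqcrh, Cox6a1, Cox6b1, Cox8a, Atp5h, Atp5j, Atp5k, Atp5l and Atp5md, and the YY1 motif in Ndufa9, Ndufc1, Ndufs4, Atp5j and Atp5j2. All 6 YY1 matches were on the strand of the gene and 5 lay just after the start. Sdhd and Atp5k were among 8 genes that held both an NRF1 and an ETS match, and Sdha held 3 NRF1 matches, of which 1 is shown. The genes with an NRF1 match had a median log2 difference from the GFP control of -0.0813 in ND13, -0.0132 in NA10 and 0.0709 in ND13(N51S), and the 45 genes with a window and without a match had -0.0727, -0.0338 and 0.0155. A match is a string of letters in the window and does not show that the factor was bound.

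Other mitochondrial genes were set beside the chain as lists. Of the measured genes of 8 lists, 0 were called by limma in each of the 6 comparisons, and at an unadjusted p under 0.05 and 1.5-fold a list had between 0 and 3 genes in either direction. The lists were 31 assembly factors, 17 regulators of biogenesis, 15 carriers and antioxidant enzymes, 22 genes of the citric acid cycle and pyruvate dehydrogenase, 13 of electron transfer flavoprotein and coenzyme Q, 22 of protein import, 74 of the mitochondrial ribosome and 1 of the mitochondrial genome. Of the mitochondrial ribosome genes 9 of 74 were above 0 in ND13 against the GFP control, with a median log2 difference of -0.172, and 14 and 17 were above 0 in NA10 and ND13(N51S), with -0.136 and -0.139. Import genes had medians of -0.214, -0.0332 and -0.117.

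In these lists the smallest unadjusted p belonged to Tmem70, an assembly factor of complex V. Its mean signal was 863 ± 32.8 (SD, n = 3) in the GFP control and 540 ± 37.6 in ND13, and the log2 difference was -0.68 ± 0.18 (SE, adjusted p = 0.362, and 0.167 with the replicate block). Dld, the E3 subunit of pyruvate dehydrogenase, had a log2 difference of -0.75 ± 0.22 in ND13(N51S) (SE, adjusted p = 0.48). ND5, a complex I subunit encoded in the mitochondrial genome, had a log2 difference of 0.49 ± 0.32 in ND13(N51S) (SE, adjusted p = 0.724). Ppargc1a, the coactivator PGC-1alpha, was above background on only 7 of the 12 arrays.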

How the data were processed

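The authors deposited MAS5 signal intensities on a linear scale for 22690 probe sets of the MOE430A array, 12 arrays in 4 groups of 3, scaled to an equal trimmed mean. MAS5 is named in the submitters' processing notes, and its version is not given in the sources used here. Array number, not read depth, limits the precision. Groups came from the labels. The GC-RMA values of the study were not used here.

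The log2 of each signal was taken after a floor of 0.01, which 0 values reached, and 22626 probe sets remained without 64 controls. Of these 20380 carried 1 gene symbol in the platform annotation, 691 several and 1555 none, and 8 with several symbols that include a respiratory chain gene were left out. All 6 pairwise comparisons were fitted on all 12 arrays with limma 3.58.1 in R 4.3.3 (lmFit, eBayes with trend and robust), with Benjamini-Hochberg adjustment over all probe sets and a call at an adjusted p under 0.05 and 1.5-fold. Differences are log2 with SE and 95% intervals. The fit was tested on simulated data. The labels number the arrays 1 to 3 in each group but do not say what a number marks. Over probe sets above the median, a set chosen after values were seen, deviations from the group mean correlated at 0.106 to 0.596 between arrays of the same number and at -0.422 to 0.107 otherwise, and over all probe sets at 0.0308 to 0.156 and -0.105 to 0.025. Over the 86 respiratory chain genes these ranges overlapped widely, at -0.128 to 0.867 and -0.738 to 0.405, and 9 of the 12 arrays were closest to their own number. The replicate number was used as a block in an alternative fit.

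The members, gene lists and tests were chosen with earlier results of these data known. Named genes were the subunit isoform families, the complex II subunits, the genes of each complex with the highest mean or smallest F test p, the 2 largest differences in each direction per comparison among genes above background, Ndufa4 and Atpif1. Of other lists at most 2 genes with the smallest p were eligible. Genes given for their replicate pattern were chosen after their values were seen. Tried as alternatives were a pseudocount of 43.8, a filter on dim probe sets, the replicate block, median centring, quantile normalisation, eBayes without trend and robust, other probe sets, updated symbols, fits of 2 groups, the methods' t-test and each array left out. After seeing the data, leaving out both doubtful arrays, the block without ND13(N51S) replicate 2, and the test of the replicate number without either array, each in turn, were added. Promoter windows came from RefSeq (GRCm38.p6), and the core of the NRF1 motif was searched after a longer form of it had been tried. Figures used Python 3.11.15 and matplotlib 3.10.9.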

Additional observations from a re-analysis of the deposited data

How the results depend on the processing

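In all 25 alternatives 0 of the respiratory chain genes were called in each comparison that could be fitted, and the replicate block changed no call of a respiratory chain gene. The alternative with updated symbols changed 0 genes, so it repeats the main result and is no separate check. The lowest adjusted p with the block was 0.114, for Atp5k in ND13(N51S) against the GFP control, and 0.188 for Ndufs1 in ND13 against it. Leaving out 1 array at a time moved the median log2 difference between NA10 and ND13(N51S) from -0.0323 to between -0.201 (without ND13(N51S) replicate 3) and 0.0595 (without ND13(N51S) replicate 2), and that between ND13 and ND13(N51S) from -0.0874 to between -0.229 and 0.00562, without the same arrays. The cause was not tested. The count at an unadjusted p and 1.5-fold for ND13 against ND13(N51S) was 2, and it was 9 without ND13(N51S) replicate 3 and 4 without replicate 2. For NA10 against ND13(N51S) it was 3, and 5 without ND13(N51S) replicate 1. For ND13 against the GFP control it was 0, and 2 without ND13 replicate 2, and for NA10 it was 1, and 3 without GFP control replicate 2. For ND13 against NA10 it was 0, and 2 without ND13 replicate 2. The shares of all probe sets in the fits without 1 array are not given, so these counts have no background beside them. The count of genes that differed between replicate numbers was 19. After median centring it was 14 (16.3%), against 4.49% of all probe sets and 13.4% of those in the same signal range. After quantile normalisation it was 25 (29.1%), against 6.07% and 20.2%. It was 26 without ND13(N51S) replicate 2 and 12 without GFP control replicate 1, with the shares given above. Median centring left 58.1% of the genes above 0 for NA10 against ND13(N51S) and 18.6% for ND13 against NA10, against 43% and 32.6% as deposited. For the 43 genes with several probe sets above background on all arrays, all probe sets had the same sign in 22 to 28 genes, depending on the comparison.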
